A study of Mus musculus with 8 samples.

Results

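Cluster 4 is a group of cells from cultured mouse white preadipocytes that the authors' clustering separated from 11 other clusters. It was described across the genes listed for it in the authors' table of cluster markers, which came to 2072 of the 13337 rows over 12 clusters (numbered 0 to 11). Each row gives the fraction of cells with the transcript detected inside the cluster and in all remaining cells. Genes whose fraction inside exceeded that outside were kept apart from genes with the reverse order. The first set held 41 genes and the second held 2028 genes, while 3 genes had equal fractions. The share of cluster 4 among all cells, solved from the fractions, was 9.59%.

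The cells came from inguinal white adipose tissue of C57BL/6 mice that were either wild type (WT) or lacked both HMGN1 and HMGN2 (double knockout, DKO), nucleosome-binding proteins of chromatin. They were grown on collagen-coated plates and collected at day 0 or at day 6 of induced browning, in 2 samples per genotype and day (WT day 0, DKO day 0, WT day 6, DKO day 6). The study used single cells to follow the speed of browning and to look for populations particular to DKO preadipocytes. The induction medium was the same for both genotypes and held insulin, dexamethasone, IBMX (a phosphodiesterase inhibitor), the thyroid hormone T3 and rosiglitazone (an agonist of the nuclear receptor PPARγ). These are cultured cells taken out of the intact tissue. Per the study's methods, the mice were 8 to 12 weeks old. The table pools the 8 samples, so no value below has a replicate, a spread or a test, and DKO was not compared with WT nor day 6 with day 0. Its depth and cell numbers are unknown.

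Preadipocytes are fibroblast-like progenitors that make collagen-rich matrix and actin stress fibres. When they differentiate, they switch on genes for fatty acid uptake, triglyceride synthesis and lipid droplets, and begin to secrete adipokines such as adiponectin. Browning adds mitochondria and, in full, the machinery that turns fuel into heat. In droplet sequencing, a transcript is detected in a cell when at least a single molecule of it is captured, so the detected fraction depends both on the transcript's abundance and on how many molecules are captured per cell.

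Cluster 4 combined low detection of nearly every listed gene with high detection of a set of fat cell genes. Its median detection over all 2072 genes was 10.8%, against 63.0% in the remaining cells. Only cluster 10 resembled it in this respect, with 8.1% inside and 62.4% outside over its own 718 rows. The other 10 clusters had medians between 55.9% and 84.5% inside. The 41 genes made up 1.98% of the rows of cluster 4, compared with 59.5% of the 2487 rows of cluster 11, 0.139% of those of cluster 10 and 42.3% to 92.6% in the other 10. The median over the 41 genes was 32.5% in cluster 4 and 20.1% in all other cells.

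**Figure D1:**
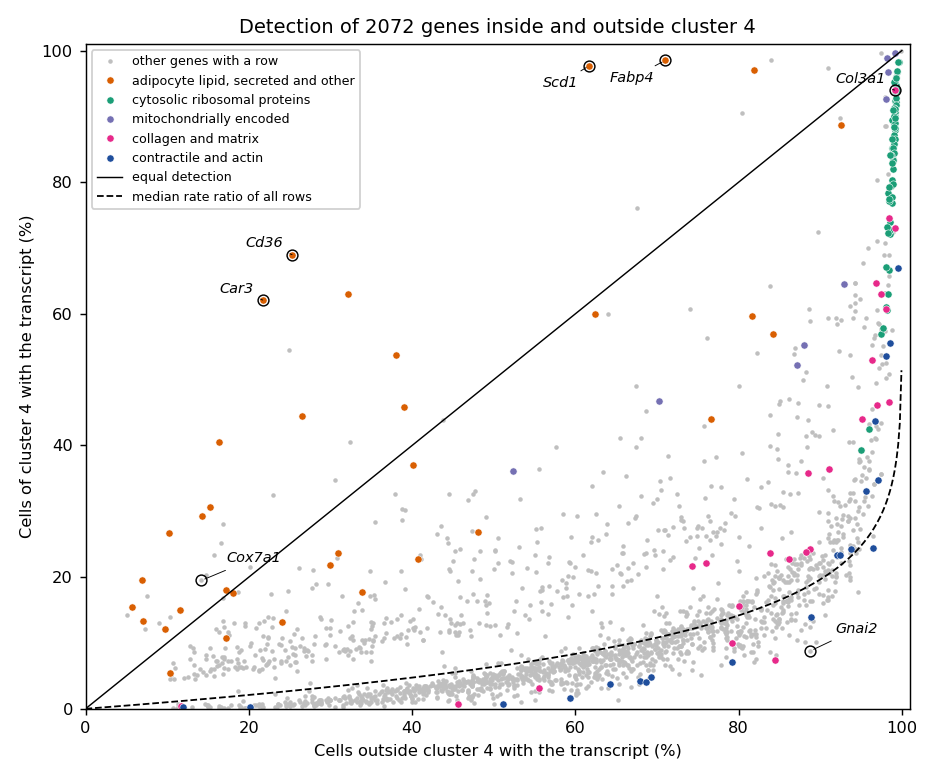
Each point is a gene with a row for cluster 4, placed by the percent of cells outside (x axis) and inside (y axis) cluster 4 with the transcript, and coloured by gene list. The solid line marks equal detection and the dashed line the median rate ratio of 0.095 over all rows, and adipocyte genes such as Cd36 (69.0% against 25.3%) lie above the solid line while most genes follow the dashed line.

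The genes near the boundary between the sets are given for description. Just above it, mt-Nd2 and mt-Atp6 were detected in 98.8% and 99.7% of cluster 4 cells against 98.2% and 99.1% elsewhere, and Lpin1 in 18.0% against 17.2%. Equal fractions were listed for Gm42418 at 99.9%, G0s2 at 43.8% and Aifm2 at 16.8%. Just below it lay Mgll, a monoacylglycerol lipase, with 17.6% against 18.1%, and Pcx, pyruvate carboxylase, with 17.8% against 18.7%.

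To compare genes of different abundance, each fraction was turned into a detection rate, the mean number of captured molecules per cell that would give this fraction if molecules were caught at random (Poisson). A rate ratio of 1 means equal detection, and values below 1 mean fewer captured molecules per cell in cluster 4. The median rate ratio over all 2072 rows was 0.095. A ratio of at least 0.5, a limit chosen after the values were seen, was reached by 148 rows, or 7.14%. Among genes detected in over 50% and up to 75% of other cells, the median detection in cluster 4 was 8.1% (703 rows), with quartiles of 5.9% and 11.9%. Over 75% and up to 90% elsewhere it was 16.3% (387 rows). Over 95% and up to 99% it was 64.6% (136 rows), and above 99% it was 93.3% (30 rows). Genes detected in over 95% of other cells thus mostly lay above the median ratio of 0.095, so lists of such genes cannot be read against it alone.

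The largest difference in favour of cluster 4 was that of a gene of fatty acid uptake, 43.7 percentage points. Cd36, the fatty acid receptor of the cell surface (chromosome 5, 17781690 to 17888801, minus strand), was detected in 69.0% of cluster 4 cells and in 25.3% of all others, a rate ratio of 4.02. Its fraction was 99.8% in cluster 11 and 68.4%, 78.2% and 87.7% in clusters 2, 6 and 8. In clusters 0, 1, 3, 5 and 10 it was only 1.0% to 2.5%. Fabp4, the fatty acid-binding protein abundant in adipocytes (chromosome 3, 10204088 to 10208576, minus strand), was detected in 98.5% of cluster 4 cells and 71.0% of other cells. Fabp5, its close relative, reached 97.0% against 81.9%. Acsl1, which activates long-chain fatty acids by joining them to coenzyme A, stood at 44.5% against 26.5%. Free RNA in the droplets can give detections in cells that do not express a gene, so detection in low clusters is given here, although their depth is unknown. For Fabp4 the lowest value was 19.7%, in cluster 10, and the next was 52.6%, in cluster 3. Fabp5 was at 27.6% and 56.7% in the same clusters but at 93.7% and 95.6% in clusters 5 and 9, and Acsl1 was at 1.3% in cluster 10 and 11.4% in cluster 1.

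Lipid synthesis was divided. Scd1, the desaturase that makes monounsaturated fatty acids (chromosome 19, 44394455 to 44407879, minus strand), was found in 97.7% of cluster 4 cells and 61.7% of the others. Gpd1, which supplies the glycerol backbone, was at 26.7% against 10.2%, and Agpat2, an acyltransferase of triglyceride synthesis, at 45.8% against 39.0%. Thrsp, a regulator of lipogenesis, was at 14.2% against 5.1%. By contrast, the fatty acid-producing enzymes Fasn and Acaca were detected in fewer cells than elsewhere, 22.7% against 40.7% and 17.8% against 33.9%. The acyltransferases that complete triglycerides, Dgat1 and Dgat2, were likewise lower, at 10.8% against 17.2% and 5.5% against 10.4%. Scd2, a second desaturase, had the lowest rate ratio of the lipid list at 0.40, although this was still above the median of all rows.

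Lipid droplet and lipolysis genes were found on both sides of the other cells. Plin1, the droplet coat protein that gates lipolysis, was detected in 29.3% of cluster 4 cells against 14.3%, and Cidec, which fuses droplets, in 15.5% against 5.7%. Pnpla2, the lipase that opens triglyceride breakdown, was at 63.0% against 32.1%. Lipe, hormone-sensitive lipase of the next step, was at 30.7% against 15.3%. Plin2, the coat protein of small droplets in many cell types, was not higher (60.0% against 62.4%), nor was Lpl, lipoprotein lipase, at 88.7% against 92.5%. G0s2, an inhibitor of the lipase made from Pnpla2, was at 43.8% in both, and its activator Abhd5 was lower in cluster 4, at 29.1% against 49.1%. Mgll, given above, was at nearly equal fractions.

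In all, 23 of the 26 genes of the adipocyte lipid list had a row for cluster 4. Of these, 13 were detected in more of its cells than elsewhere, against 1.98% of all rows. Cidec and Plin4 among the 13 were under 10% elsewhere (5.7% and 9.7%), so they could be listed only by being higher in cluster 4. They raise the counts and the median given here. The remaining 10 were lower, and Acly, Aqp7 and Me1 had no row. Over the 23 rows the median rate ratio was 1.24, ranging from 0.40 to 4.02, and 19 of the 23 reached 0.5, against 7.14% of all rows. In cluster 11 all 23 were detected in more cells than elsewhere, against 59.5% of that cluster's rows. Cidec and Plin4 were under 10% outside cluster 11 too (5.7% and 8.8%), so they could be listed there only by being higher.

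Secreted and other fat cell genes had a similar range. Adipoq, which encodes the hormone adiponectin, was detected in 40.5% of cluster 4 cells and in 16.4% of other cells. It was nearly absent from clusters 0, 1, 3 and 10, at 1.0% to 2.2%, but at 40.1% in cluster 2. Car3, a carbonic anhydrase abundant in fat cells, was at 62.1% against 21.7%. Values for Rbp4, the retinol carrier, were 53.7% and 38.0%. Retn, which encodes the adipokine resistin, had a rate ratio of 1.32. Adig, a small adipocyte membrane protein, and Lcn2, a lipocalin, were at 19.5% against 6.9% and 13.3% against 7.0%. Of the 16 genes of this list, 11 had a row, with a median rate ratio of 1.32. Adig and Lcn2 among them, at 6.9% and 7.0% elsewhere, could be listed only by being higher in cluster 4. They raise both the median and the count above, and without both the median would lie below 1. In all, 6 were above the other cells, against 1.98% of all rows, and 5 were below. Among those below were Apoe, a lipid carrier (59.6% against 81.7%), and Cav1, the main protein of caveolae (26.9% against 48.1%).

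Cox7a1, a subunit of cytochrome c oxidase typical of muscle and brown fat (chromosome 7, 30184144 to 30186078, plus strand), was the sole thermogenic gene with a row for cluster 4 out of 17 in the list. It was detected in 19.5% of cluster 4 cells, 14.2% of other cells and 72.3% of cluster 11. Clusters 0, 1 and 5 had 8.2%, 4.8% and 7.0%. Ucp1, the uncoupling protein of heat production, had no row for cluster 4, which is no value of 0, because a row required detection in 10% of cells on either side and a minimum difference.

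The listed transcription factors of fat cell differentiation were each detected in fewer cells of cluster 4 than elsewhere. Pparg and Cebpa, the nuclear receptor and the leucine zipper factor at the head of the adipocyte program, were detected in 11.7% and 21.1% of cluster 4 cells against 16.3% and 27.9% elsewhere, with rate ratios of 0.70 and 0.72. Srebf1, which drives lipogenic enzymes, was at 8.8% against 26.8%. Ebf1, an early B-cell factor also active in fat, was at 35.8% against 87.0%. Cebpd, an early adipogenic factor, had the lowest ratio of the group, 0.12 (14.8% against 73.2%). Of the 13 factors in the list, 5 had a row and 0 of these were above the other cells, against 1.98% of all rows. With so few rows, a count of 0 is near that share and does not set these factors apart. Their median rate ratio of 0.295 was higher than the 0.095 over all rows.

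Other genes among the 41 belonged to several functions. Cdo1, cysteine dioxygenase, was detected in 54.5% of cluster 4 cells against 24.9%, and Ephx2, soluble epoxide hydrolase, in 28.1% against 16.8%. A2m, the protease inhibitor alpha-2-macroglobulin, was at 32.5% against 23.0%. Chchd10, a protein of the mitochondrial intermembrane space, was at 90.5% against 80.4%. Slc36a2, an amino acid transporter, was at 17.1% against 7.5%, and Pdk4, a kinase that shuts off pyruvate dehydrogenase, at 12.1% against 7.3%. Mrap, an accessory protein of the ACTH receptor, was at 13.1% against 9.0%, and Plin4, another droplet coat protein, at 12.1% against 9.7%. The small GTPase gene Arl4a stood at 40.5% against 32.4%, Lrg1, a secreted glycoprotein, at 23.3% against 15.7%, and Nabp1, a single-strand DNA-binding protein, at 25.2% against 16.6%. Differences were smaller for Car5b, a mitochondrial carbonic anhydrase (13.9% against 10.4%), and Pde3b, a phosphodiesterase that acts in insulin signalling (21.6% against 20.1%). Arxes1 and Arxes2 were at 20.4% against 14.8% and 34.7% against 30.5%, but they are near-identical neighbours on the X chromosome, so the division of reads between them is uncertain. For 8 of the 41 (Adig, Cidec, Lcn2, Mrap, Pdk4, Plin4, Slc36a2 and Thrsp), detection elsewhere was under 10%. These could be listed only by passing 10% in cluster 4, so their direction was fixed by the listing rule, whereas the other 33 could have been listed in either direction.

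**Figure D2:**
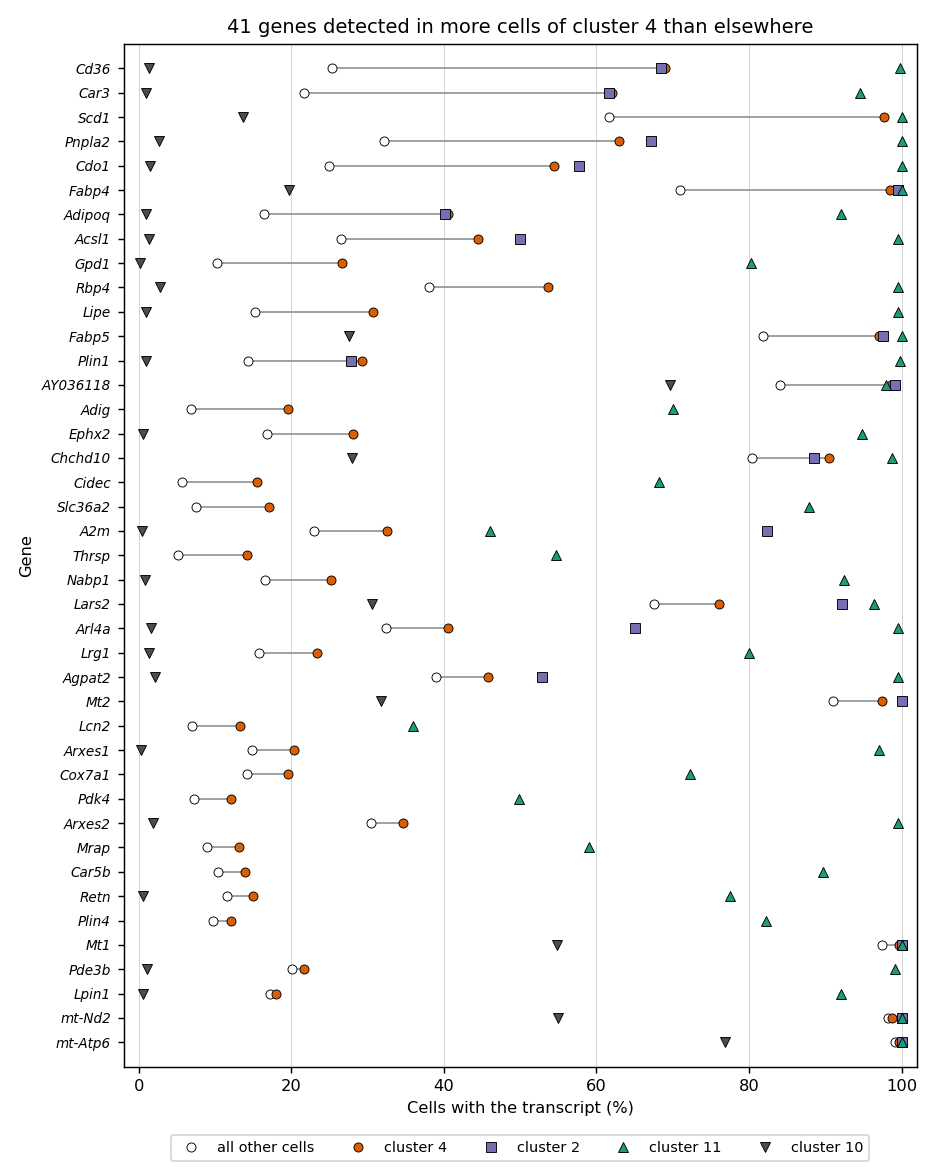
Each row is one of the 41 genes, ordered by the difference between cluster 4 and all other cells, and each symbol gives the percent of cells with the transcript in cluster 4, all other cells and clusters 2, 10 and 11 where a row exists. Cluster 11 lies to the right of cluster 4 for all but AY036118 of the 40 genes with a row, and cluster 10 lies to the left wherever it has a row.

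Both metallothioneins, small metal-binding proteins, were above the other cells: Mt1 at 99.7% against 97.5% and Mt2 at 97.4% against 91.0%. Of the metal-handling list of 5, 4 had a row, with Ftl1 (ferritin light chain) at 94.6% against 99.4% and Tfrc (transferrin receptor) at 11.8% against 31.2%. Lars2, the mitochondrial leucyl-tRNA synthetase (chromosome 9, 123366927 to 123462666, plus strand), was at 76.1% against 67.6%. AY036118, a long non-coding RNA (chromosome 17, 39847113 to 39848035, minus strand), was at 98.6% against 84.0%. It lies within Gm42418 on the opposite strand (39846958 to 39848788), and whether reads were counted by strand is not given in the sources used here, so reads of the pair may not be safely told apart. The list of nuclear RNAs, in which Lars2 was placed although it is protein coding, had 7 rows of 11 genes with a median rate ratio of 0.451. Neat1, which builds nuclear paraspeckles, was at 54.0% against 82.3%.

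The 41 genes lay on 19 chromosomes, the mitochondrial one included. GENCODE annotates 40 of them as protein coding and AY036118 as a long intergenic RNA.

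For 3 of them, chosen because they are the gene with the largest difference, the adiponectin gene and the thermogenic gene, the DNA just before the RefSeq transcription start is shown. The sequences run 5′ to 3′ on the gene's strand in GRCm38.p6, and capitals mark CCAAT or its reverse complement ATTGG, a promoter element. Cd36 is shown for chr5:17835897-17836146 (minus strand, inside the GENCODE gene but in no exon), Adipoq for chr16:23146286-23146535 (plus strand) and Cox7a1 for chr7:30183921-30184143 (plus strand, ended where the GENCODE gene begins).
Cd36: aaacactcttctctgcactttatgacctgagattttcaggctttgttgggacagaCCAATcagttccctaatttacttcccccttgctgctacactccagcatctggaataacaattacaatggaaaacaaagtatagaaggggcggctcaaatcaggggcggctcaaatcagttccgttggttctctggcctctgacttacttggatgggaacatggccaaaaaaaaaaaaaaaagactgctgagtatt
Adipoq: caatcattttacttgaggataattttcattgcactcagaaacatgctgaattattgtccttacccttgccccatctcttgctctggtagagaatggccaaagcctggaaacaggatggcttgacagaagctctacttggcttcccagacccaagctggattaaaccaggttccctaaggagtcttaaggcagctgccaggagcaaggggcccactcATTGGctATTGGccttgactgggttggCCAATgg
Cox7a1: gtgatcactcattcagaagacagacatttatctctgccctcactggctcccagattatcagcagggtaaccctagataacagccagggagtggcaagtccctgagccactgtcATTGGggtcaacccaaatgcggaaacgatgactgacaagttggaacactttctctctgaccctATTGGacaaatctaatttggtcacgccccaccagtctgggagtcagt
Adipoq held 3 matches, Cox7a1 held 2 and Cd36 held 1. Over the 250 bases before the start, 11 of the 28 matched genes of the 41 (39.3%) held at least a single match, as did 36.8% of the 1587 matched genes detected in fewer cells and 34.5% of all 27025 promoters in the table. Such matches are a description of the letters and mark no binding site. Scd1, Fabp4 and Car3 had no entry.

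Mitochondrially encoded transcripts, which code for core subunits of the respiratory complexes, kept a larger part of their detection than most genes. Of 9 rows, mt-Atp6 and mt-Nd2 were above the other cells and 7 were below, with a median rate ratio of 0.605. mt-Nd1 was at 96.7% against 98.3% and mt-Nd4 at 92.6% against 98.1%. The lowest ratio was 0.36 for mt-Nd3, at 52.3% against 87.2%. Nuclear-encoded subunits of the same complexes lay lower. Of 69 rows, only Cox7a1 was above the other cells, against 1.98% of all rows, and the median rate ratio was 0.282. Cox4i1, a subunit of cytochrome c oxidase, was at 88.5% against 97.9%, and Cycs, cytochrome c, at 60.7% against 74.1%, whereas Sdhc of complex II was at 18.6% against 64.5%. All 68 of these nuclear genes with a row for cluster 11 were above the other cells there, against 59.5% of that cluster's rows.

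Transcripts for the cytosolic ribosome were detected in most cluster 4 cells. All 72 rows were below the other cells, as were 2028 of all 2072 rows. Their median was 85.2% in cluster 4 against 98.9%, and the median rate ratio was 0.426. Among all genes in over 95% and up to 99% of other cells, ribosomal genes included, the median in cluster 4 was 64.6% (136 rows). Above 99% it was 93.3% (30 rows), and whether the ribosomal list differs from genes of like detection was not tested. Rplp1 and Rpl13 were at 98.3% and 98.2%, whereas Rps27l and Rpl36al, relatives of the core ribosomal genes, were at 39.3% and 42.5%. Many ribosomal genes have near-identical processed copies, so their reads are uncertain. Eef1a1, the elongation factor, was at 98.4% against 99.5%. Among the genes below the other cells, the 15 most detected in cluster 4 held 11 ribosomal genes beside Eef1a1, mt-Nd1, Ftl1 and Col3a1, and ranged from 93.8% to 98.4%. The other translation factors were much lower, and the 23 rows of that list had a median rate ratio of 0.125. Of these 23, 0 were above the other cells, against 1.98% of all rows.

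**Figure D3:**
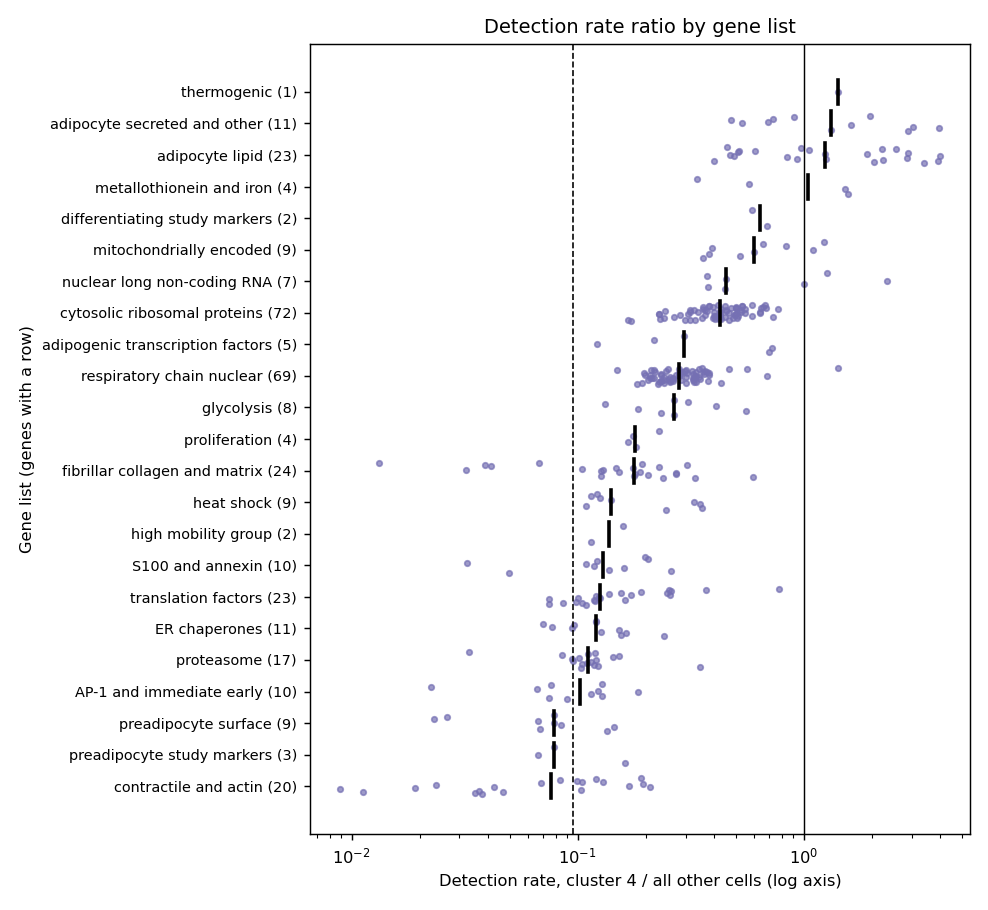
Points are genes, placed on a log axis by the detection rate in cluster 4 divided by that in all other cells, one row per gene list with its number of genes, and black bars mark list medians. The solid line marks a ratio of 1 and the dashed line the median of 0.095 over all rows, and the adipocyte lists (medians 1.24 and 1.32) lie at the opposite end from the contractile list (0.0762). Both adipocyte medians include genes that could be listed only by being higher in cluster 4 (Cidec, Plin4, Adig and Lcn2).

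Matrix genes were spread over a wide range of detection, from 0.4% to 94.0% of cluster 4 cells. All 24 rows of the matrix list were below the other cells, as were 2028 of all 2072 rows. Their median rate ratio was 0.177, beside 0.095 over all rows. Col3a1 and Col1a1, fibrillar collagens, were detected in 94.0% and 74.5% of cluster 4 cells against 99.1% and 98.4%. Sparc, a collagen-binding matrix protein, was at 73.0% against 99.2%. In the middle of the range, Fbn1, the microfibril protein fibrillin, was at 23.8% against 88.3%. At the other end, Timp3 and Timp2, inhibitors of matrix metalloproteinases, were at 3.1% against 55.6% and 7.4% against 84.4%. Mfap4, a microfibril protein, was at 0.8% against 45.6%.

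The contractile and actin list lay lowest. All 20 of its genes had a row and were below the other cells, as were 2028 of all 2072 rows. Their median rate ratio was 0.0762, beside 0.095 over all rows. Acta2, smooth muscle actin, was detected in 4.2% against 67.9%, and Tagln, an actin cross-linker, in 4.0% against 68.6%. Myl9, a myosin light chain, was at 0.8% against 51.2% and Cnn1, calponin, at 0.2% against 20.2%. Actb, the cytoplasmic actin, remained at 67.0% against 99.5%. Progenitor surface genes were similarly low: the 9 rows had a median ratio of 0.0789. None of them was above the other cells, against 1.98% of all rows. Pdgfra and Pdgfrb, growth factor receptors of adipose progenitors, were at 14.8% against 69.6% and 7.9% against 70.2%, and Thy1 at 2.4% against 60.1%.

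The 5 genes of the lists of preadipocyte and differentiating markers that the study used for annotation were below the other cells. So were 2028 of all 2072 rows. Mmp3, F3 and Itgb1, used for preadipocytes, were at 11.5% against 52.9%, 11.2% against 83.1% and 19.6% against 93.7%. Col5a3 and Serpina3n, used for differentiating cells, lay closer to the others, at 28.7% against 38.8% and 39.7% against 57.6%. No cell type name is given to cluster 4, since its cells' depth is unknown.

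Among all genes, the largest falls were spread over several functions. Gnai2, an inhibitory G protein subunit, was detected in 8.8% of cluster 4 cells against 88.8%, and Nfix, a nuclear factor, in 10.2% against 89.5%. Serpinf1, the secreted factor PEDF, was at 10.1% against 88.1%, and Pcolce, which promotes collagen processing, at 14.3% against 90.6%. Arpc1b, part of the Arp2/3 actin nucleator, was at 17.7% against 94.6%. The other 10 of the 15 largest falls (Timp2, Pmepa1, Clic1, Rcn3, Aprt, Selenow, Nenf, Tspan4, Ostc and Sh3bgrl3) fell by 75 to 77 percentage points.

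The general cell maintenance lists lay between these extremes, all below the other cells like 2028 of all 2072 rows. Glycolytic enzymes had a median rate ratio of 0.266 over 8 rows, led by Aldoa, aldolase, at 88.6% against 98.0%. Heat shock proteins had 0.140 (9 rows), S100 and annexin genes 0.129 (10 rows), chaperones of the endoplasmic reticulum 0.121 (11 rows), proteasome subunits 0.111 (17 rows) and immediate early transcription factors 0.102 (10 rows). Egr1, an immediate early factor, was at 35.0% against 90.4%, and Fos at 11.4% against 74.1%. Of 18 proliferation genes 4 had a row, with a median of 0.179, and Ube2c, a mitotic ubiquitin-conjugating enzyme, was at 4.7% against 23.2%.

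Hmgn1, 1 of the 2 knocked-out genes, was detected in 26.1% of cluster 4 cells and 92.8% of other cells, a rate ratio of 0.115, and Hmgb1, another high mobility group gene, in 37.7% against 94.9%. Hmgn2 had no row for cluster 4. Cells of both genotypes are pooled in each value, so the knockout could not be checked here. For DKO cells the paper reports that RNA of the deleted exons is absent. A detected Hmgn1 read therefore need not mean an intact transcript. The immune, endothelial, glial and erythroid lists (15, 9, 8 and 5 genes) had 0 rows for cluster 4, and 1, 1, 0 and 0 of their genes had a row in any cluster. The authors had removed immune, glial and endothelial cells.

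Among genes that were lower than elsewhere, the highest ratios after Mgll and Pcx were those of Plin2 (0.94), Hp, the acute-phase protein haptoglobin (0.91), Ppa1, a pyrophosphatase (0.90), and Dbi, the acyl-CoA-binding protein (0.89). Also among the 15 highest were Lpl, mt-Nd1, Fcor, Eef1a1, Smim41, Rplp1, Glul (glutamine synthetase) and Echdc1, with ratios from 0.747 to 0.842. Of the 148 genes with a ratio of at least 0.5, 74 belonged to no list. Those chosen from them after their values were seen included Acadm and Acadl, dehydrogenases of mitochondrial fatty acid oxidation (0.612 and 0.601), Mpc1 and Mpc2, the mitochondrial pyruvate carrier (0.58 and 0.562), and Cat, catalase (0.738). Of the 127 with a row for cluster 11, 126 were above the other cells there, against 59.5% of all rows of cluster 11. Some of these, such as Cidec and Adig, could be listed there only by being higher.

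**Figure D4:**
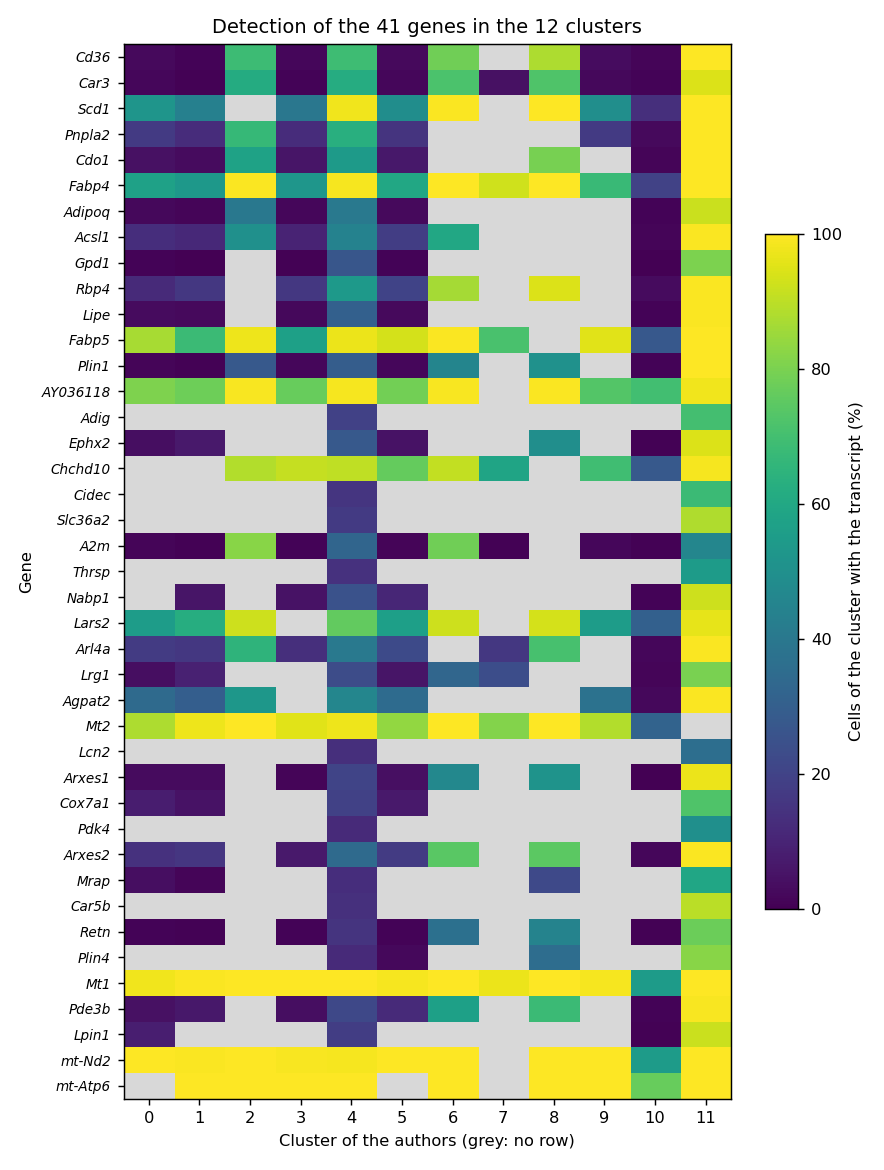
Colour gives the percent of cells of each cluster (columns 0 to 11) with the transcript for the 41 genes (rows), and grey marks genes without a row for that cluster, which is no value of 0. Clusters 2, 6, 8 and 11 resemble or exceed cluster 4 for genes such as Cd36 (68.4%, 78.2%, 87.7% and 99.8% against 69.0%), and clusters 0, 1, 3 and 10 are near 0 for it.

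Cluster 11 held the highest detection of nearly all of the 41 genes. Of the 41, 38 had their highest listed value in cluster 11, ties included. Of the 40 with a row there (Mt2 had none), all 40 were above the cells outside cluster 11, against 59.5% of that cluster's rows. Adig, Car5b, Cidec, Lcn2, Mrap, Pdk4, Plin4, Slc36a2 and Thrsp among them were at only 5.2% to 9.5% outside cluster 11. These could be listed there only by being higher, so their direction was fixed by the listing rule. Over the 40 genes the median was 96.8% in cluster 11, with a lowest value of 36.0% for Lcn2, against 32.5% for all 41 in cluster 4. Plin1 was detected in 99.8% of cluster 11 cells and 29.3% of cluster 4 cells, Lipe in 99.5% and 30.7%, and Slc36a2 in 87.9% and 17.1%. Fabp4 and Scd1 were close to saturation in both clusters and were detected in every cell of cluster 11 at the rounding of the table. For 7 of the 41 (Adig, Car5b, Cidec, Lcn2, Pdk4, Slc36a2 and Thrsp), clusters 4 and 11 were the only clusters with a row. These genes were at 5.1% to 10.4% outside cluster 4. At such low fractions the listing rule mostly leaves rows where a gene is high, so the shared rows are no separate result. By listed values, 13 of the 41 were higher than in cluster 4 in 1 other cluster, 5 in 2 and 18 in 3 other clusters. Rbp4, for instance, was at 86.7% in cluster 6 and 94.6% in cluster 8, against 53.7% in cluster 4.

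Over the 1505 genes with a row for both clusters, the median detection was 10.8% in cluster 4 and 68.9% in cluster 11, and the median rate ratio was 0.104. Only 14 genes (0.93%) were detected in more cells of cluster 4, none of them by 5 percentage points. AY036118 was the sole gene of the 41 in this group, at 98.6% against 98.0%. The others were low in both clusters, such as Fgf7, a fibroblast growth factor, at 9.0% and 8.6%, and Inhba, an activin subunit, at 8.9% and 7.9%. The adipocyte lipid list had a median ratio of 0.0921 over 18 genes below saturation in cluster 11, beside 0.104 over all genes with a row in both. The matrix list had a median ratio of 0.551 (22 genes).

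The pattern of other genes also differed between the clusters. Of the 1505 genes with a row for both, a first set of 774 was below the other cells in cluster 4 but above them in cluster 11. Another 688 genes were below in both. The first set included all 40 ribosomal genes with a row in both. Timp2 was below in both, at 7.4% in cluster 4 and 21.9% in cluster 11, as were Tagln (4.0% and 4.9%), Acta2 (4.2% and 6.7%) and Myl9 (0.8% and 0.7%). Pdgfrb was at 7.9% and 12.4%.

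**Figure D5:**
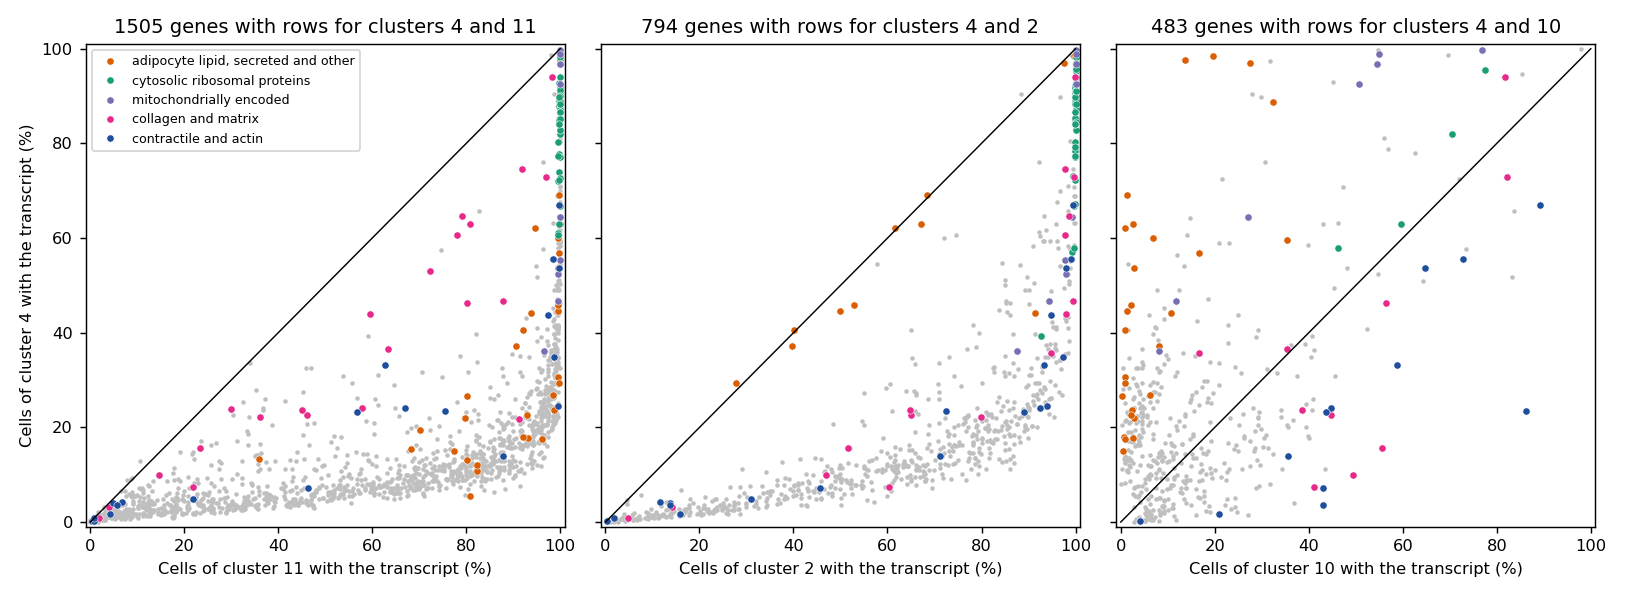
Each panel sets the percent of cluster 4 cells with the transcript (y axis) against the same gene in cluster 11, 2 or 10 (x axis), with colours for gene lists and a line at equal detection. Against cluster 11 adipocyte genes lie below the line (Cd36 at 69.0% and 99.8%), against cluster 2 several lie close to it (Cd36 at 68.4%) while Scd2 lies far below (44.1% and 91.4%), and against cluster 10 they lie above it (Cd36 at 1.4%).

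Cluster 2 was compared because, after the values were seen, several of its fat cell genes lay close to those of cluster 4. Cd36 was detected in 69.0% of cluster 4 cells and 68.4% of cluster 2 cells, Car3 in 62.1% and 61.7%, Adipoq in 40.5% and 40.1%, and Plin1 in 29.3% and 27.8%. Yet over the 794 genes with a row for both clusters, the median was 14.5% in cluster 4 and 68.8% in cluster 2, with a median rate ratio of 0.137 and only 6 genes (0.756%) higher in cluster 4. Within 5 percentage points of each other were 8.94% of these genes, as against 14 of the 19 of the 41 genes with a row for cluster 2. Of those 19, 11 were under 90% in cluster 2 and so not near saturation, and 7 of the 11 were within 5 points. These 19 were chosen for being high in cluster 4. Of the 8 genes of the lipid list with a row for cluster 2, 5 were within 5 points, and Scd2 was far lower in cluster 4, at 44.1% against 91.4%. The 5 of the 19 that differed by more were all lower in cluster 4: A2m (32.5% against 82.4%), Arl4a (40.5% against 65.0%), Lars2 (76.1% against 92.2%), Agpat2 (45.8% against 52.8%) and Acsl1 (44.5% in cluster 4). Col5a3 and Serpina3n, the study's markers of differentiating cells, also lay lower in cluster 4 than in cluster 2, at 28.7% against 75.6% and 39.7% against 91.3%. The cell numbers behind these fractions are unknown, so whether small gaps exceed counting error cannot be said.

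Cluster 10 shared the low detection of cluster 4 but not its fat cell genes. Of the 483 genes with a row for both, 290 (60.0%) were detected in more cells of cluster 4, and the median rate ratio was 1.53. All 18 lipid genes with a row in both were higher in cluster 4, with a median of 45.2% against 2.3%, and so were all 9 of the secreted list (37.1% against 2.8%). Scd1 was at 97.7% in cluster 4 and 13.6% in cluster 10. The 7 mitochondrially encoded transcripts with a row in both were higher as well, for instance mt-Nd2 at 98.8% against 54.9%, and mt-Atp6 at 99.7% against 76.9%.

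The cytoskeletal and calcium-binding genes had the opposite order. All 12 contractile genes and all 10 S100 and annexin genes with a row in both were lower in cluster 4 than in cluster 10. Of all 483 genes with a row in both, 193 were lower. Tmsb4x, the actin-binding thymosin beta-4, was at 23.4% against 86.2%, Tpm1, a tropomyosin, at 7.1% against 43.1%, and S100a4, a calcium-binding protein of fibroblasts, at 4.1% against 36.9%. Matrix genes were divided, with 7 of 10 lower in cluster 4, beside 193 of all 483: Timp2 was at 7.4% against 41.2%, and Col3a1 at 94.0% against 81.7%.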

How the data were processed

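Single-cell RNA-seq (droplet capture, 3′ chemistry) was performed by the authors on 8 samples in 4 groups of 2. Per the labels, Cell Ranger 6.0.0 and mm10 were used. Per the study's methods, samples were aggregated with their read depth equalized, low-quality and immune, glial and endothelial cells were removed, cells were clustered in Seurat, and each cluster was compared with all remaining cells by MAST over single cells. No doublet removal is described, and none was possible from the table.

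The deposited table pools all cells. Its fraction columns, the authors' detection values inside and outside the cluster with 3 decimals, were used as percents. Its log2 fold changes and p-values are the authors' own comparisons and were not used. The number of unused columns with values per sample was 0. A gene had a row only where the larger fraction passed 10% and a fold minimum was met, so a missing row is not a 0, and medians describe listed genes only.

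Detection rates were computed as the negative natural logarithm of 1 minus the fraction, with pairs at 100% left out. Shares of clusters were solved by least squares from the 10 genes listed for all 12 clusters, since the share-weighted detection of a gene must not depend on the cluster used. Both steps were tested on simulated data. Dates had replaced symbols in 35 rows (4 in cluster 4, restored from row names). Coordinates are from GENCODE vM21 (GRCm38, the same assembly as mm10), and promoters from RefSeq. Python 3.11.15, numpy 2.4.6, pandas 2.3.3 and matplotlib 3.10.9 were used. The members, the 27 gene lists and the comparisons were chosen with earlier results of these data known.

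The genes named were Scd1, Fabp4, Cox7a1, the genes above the other cells, the 15 largest falls, the 15 most detected and the 15 with the highest rate ratio (of those in at least 10% of cells) among genes below, members of the lists, Hmgn1 and Hmgn2, and 1 gene that the rule names is not reported here. Alternatives changed the size of difference counted, the fraction required, the scale of the ratio, the rows with dates and the cells compared with.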

Additional observations from a re-analysis of the deposited data

How the results depend on the processing

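The 41 genes above the other cells became 17 with a difference of at least 10 percentage points and 26 where the larger fraction had to reach 25%. Other limits on the difference, leaving out rows with dates, and the comparison without cluster 10 or cluster 11 (chosen after seeing the data) gave 30 to 45, and the count below ranged from 1875 to 2032. The median rate ratio of 0.095 became 0.171 as a plain ratio of fractions, 0.0475 as a ratio of odds, 0.0925 for genes detected in at least 25% of other cells and 0.0846 for those in 25% to 90%. Against cluster 11, 0.104 became 0.205 as a plain ratio and 0.0897 for genes in 25% to 90% of its cells, and the 14 genes higher in cluster 4 became 0 at a difference of 5 points. The genes above in both clusters went from 40 to 29 and those of the lipid list from 13 to 11 at that difference, and the share of cluster 4 from 9.59% to 9.60%.

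No paired analysis was possible because the fractions pool all samples and nothing was tested. With depth and cell numbers unknown, no interval is given, and differences of a few points cannot be set against counting error. Fractions near 100% carry little information on the rate.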
